A study of Mus musculus with 4 samples.

Results

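The genes described are 10 transcription factor genes known from the mesenchyme of the mouse ureter: Tbx18, Tbx2, Tbx3, Tshz3, Foxf1, Foxf2, Sox9, Tcf21, Osr1 and Hic1. They were chosen by name, as every array probe whose gene name in the scanner files is one of these symbols. No value entered that rule, though the symbols were listed with earlier results of these data known. The rule found 12 of the 39429 gene probes on the array, and all 10 genes were among the 21501 genes tested. Foxf1 and Hic1 have 2 probes each, and the other genes have 1 each. Every one of the 12 probes was well above background in all 4 cKO RNAs and in all 4 control RNAs.

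The RNAs came from whole dissected ureters of NMRI mouse embryos at E15.5. The ΔNp63-cKO embryos, called cKO here, carried Pax2-cre/+ and Trp63(dN-flox/dN-flox). The control embryos were Trp63(dN-flox/?), with the second allele not stated in the labels and no cre listed, so loss of ΔNp63 and the presence of cre cannot be told apart. A cKO and a control RNA of 1 sex shared each of the 4 arrays, which were female for replicates 1 and 2 and male for replicates 3 and 4. Red dye was on the cKO RNA in replicates 1 and 3, and green dye in replicates 2 and 4. The labels do not state whether an RNA came from a single embryo or from a pool, so the p-values measure the spread between these RNAs. The targeted gene, Trp63, had log2 ratios of cKO over control of -1.39, -1.18, -1.30 and -1.62 in replicates 1 to 4 (adjusted p = 0.00323, limma). The median signal of a spot was between 382 and 416 for green and between 519 and 617 for red, depending on the array.

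ΔNp63 is a transcription factor of the epithelium, whereas the 10 genes are known mainly from the mesenchyme around it. In the developing ureter, Hedgehog and Wnt ligands released by the epithelium act on the neighbouring mesenchyme, which forms the smooth muscle coat, the lamina propria and the adventitia. FOXF1 is known as a mediator of the Hedgehog signal upstream of Bmp4 and of smooth muscle formation, and TBX2 and TBX3 as factors maintained by the Wnt signal. TBX18 marks the ureteric mesenchyme from early stages and is needed for its aggregation around the epithelium. The comparison thus shows how far these mesenchymal genes differed after an epithelial gene was targeted.

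The Foxf probes carry the values on which most of the following turns, and their starting stretches are shown so that the 2 Foxf1 probes and the Foxf2 probe can be told apart. Whether a probe lies in a coding or an untranslated part was not determined here. The array's probes are 60 bases long. The first 30 bases of each are given 5′ to 3′ in lower case as the scanner files hold them, with mm9 coordinates of the whole probe on the plus strand.
Foxf1 A_55_P2059765, chr8:123611944-123612003, brighter probe: cctcctttctgcactgtataaaagggacaa
Foxf1 A_51_P262111, chr8:123610681-123610740, dimmer probe: ttcaatgccatggcctcttcttctatgcat
Foxf2 A_51_P248865, chr13:31723139-31723198: ttttatgatcttcgtatactcacacttcgc
In the transcript record NM_010426 the brighter Foxf1 probe starts at base 2314 and the dimmer at base 1051, so they read separate parts of the same transcript. The longest run of bases shared by a Foxf1 and a Foxf2 probe was 8. Over all 64 pairs of probes from different members the longest shared run was 10 bases of 60, and the Tbx2 and Tbx3 probes shared at most 7.

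Of the 10 genes, 0 passed the test over all genes (limma, Benjamini-Hochberg adjusted p under 0.05), against 1.24% of all genes. At an unadjusted p under 0.05 there were 2, Foxf1 and Foxf2, with both higher in cKO ureters. The same threshold was met by 8.04% of all genes in either direction and by 3.73% in the higher direction. The mean log2 ratios of the 10 genes ran from -0.13 for Osr1 to 0.45 for Foxf1, with a median of 0.03 beside -0.000237 over all genes tested. The sign of that median rested on single arrays: it was -0.0205 without replicate 2 and -0.0214 without replicate 3, against 0.0793 without replicate 1 and 0.0504 without replicate 4. The medians of the 10 genes on the single arrays were -0.14, 0.08, 0.08 and 0.12 in replicates 1 to 4. A ratio with the same sign on all 4 arrays was found for 2 of the 10 genes, again Foxf1 and Foxf2, and for 15.3% of all genes, so this count is close to the background. In RNA of whole ureters, fewer cells of a type and less RNA per cell cannot be told apart.

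**Figure D1:**
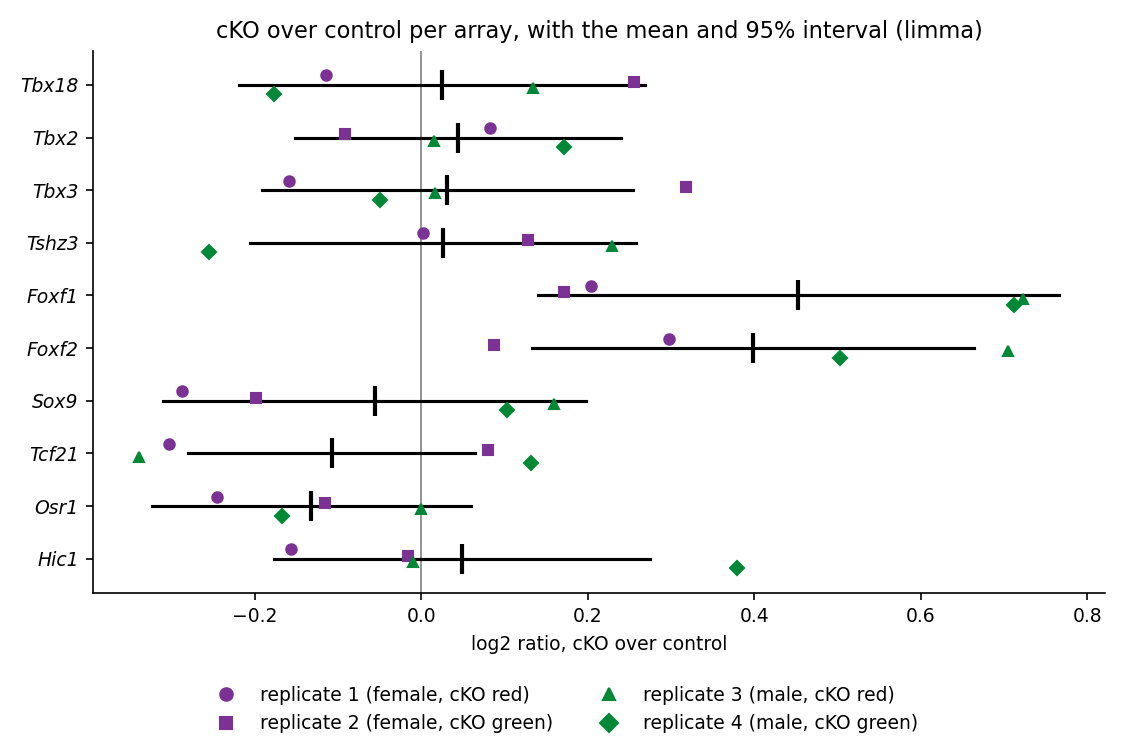
Log2 ratios of cKO over control for the 10 genes (horizontal axis), with 1 symbol per array, a vertical bar for the mean and a line for limma's 95% interval. The intervals of Foxf1 and Foxf2 lie above 0, and those of the other 8 genes hold 0.

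Foxf1, the forkhead factor of Hedgehog-responsive mesenchyme, had the largest mean log2 ratio (cKO over control) of the 10 genes as processed here. Its rank above Foxf2 depended on the processing, as given at the end. With its brighter probe the normalised log2 intensities were 14.20, 14.45, 14.61 and 14.64 in the cKO RNAs of replicates 1 to 4, against 13.99, 14.28, 13.88 and 13.93 in the control RNAs. The cKO level was above its own array's control on every array, and the groups overlapped only because the control of replicate 2 exceeded the cKO of replicate 1. The ratios on the log2 scale were 0.20, 0.17, 0.72 and 0.71, a mean of 0.45 ± 0.31 (SD, n = 4) or 1.37-fold (95% interval 1.10 to 1.70-fold). The difference did not pass the threshold (limma, adjusted p = 0.301). A mean ratio at least as far from 0 was found for 2.28% of all genes, a share read here for the largest of the 10.

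The dimmer Foxf1 probe gave a smaller and less regular difference. Its log2 intensities were 10.47, 10.48, 10.61 and 10.67 in cKO RNAs and 10.26, 10.66, 10.08 and 10.14 in control RNAs. Its ratios of 0.20, -0.18, 0.53 and 0.54 had a mean of 0.27 ± 0.34 (SD, n = 4), with adjusted p = 0.804 when every kept probe was tested by itself (limma). Under that test 1.01% of all kept probes passed. The probes thus matched closely in replicate 1, and the dimmer one was lower on the other arrays and negative in replicate 2.

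Foxf2, the paralogue of Foxf1 and likewise a factor of gut and body wall mesenchyme, was measured at 8.51, 8.41, 8.58 and 8.71 in cKO RNAs and at 8.21, 8.33, 7.87 and 8.20 in control RNAs (normalised log2 intensity). Every cKO value was above every control value. Such a separation was found for Foxf2 alone among the 10 genes and for 6.38% of all genes. The log2 ratios were 0.30, 0.09, 0.70 and 0.50, a mean of 0.40 ± 0.27 (SD, n = 4) or 1.32-fold (95% interval 1.10 to 1.58-fold), with adjusted p = 0.277 (limma).

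The differences of both Foxf genes were larger on the male arrays. For Foxf1 the mean log2 ratio was 0.72 on the 2 male arrays and 0.19 on the 2 female arrays, a male minus female difference of 0.53 (limma, adjusted p = 1.00). For Foxf2 it was 0.60 on male and 0.19 on female arrays, a difference of 0.41 (adjusted p = 1.00). Neither passed the adjusted threshold, and the sex difference passed for 0.0698% of all genes. Each sex held both dye orientations, and the mean ratio of the brighter Foxf1 probe was 0.46 with the cKO RNA in red and 0.44 with it in green. By dye, the means were 0.37 in red and 0.18 in green for the dimmer Foxf1 probe, and 0.50 in red and 0.30 in green for Foxf2. The size of the Foxf differences thus rested on the male arrays: without replicate 4 the mean was 0.32 for Foxf1 and 0.29 for Foxf2. Without replicate 2 both passed the threshold, at 0.59 for Foxf1 (adjusted p = 0.0118) and 0.50 for Foxf2 (adjusted p = 0.0159), in a fit that called 4.37% of all genes. Foxf1 also passed without replicate 1, at 0.58 (adjusted p = 0.0405, with 1.68% of all genes called), and with sex as a covariate (adjusted p = 0.0352, with 2.53% called).

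**Figure D2:**
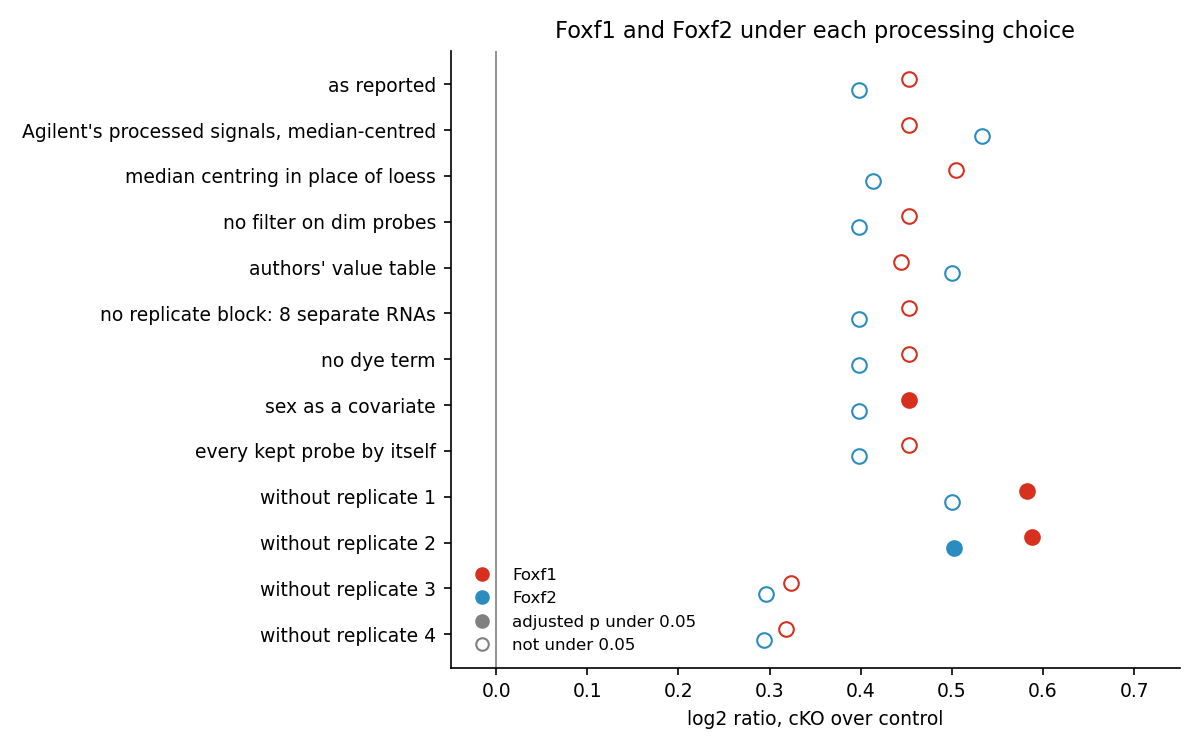
Mean log2 ratio of Foxf1 (red) and Foxf2 (blue) on the horizontal axis under each processing choice (rows), with filled symbols for adjusted p under 0.05. Every value is above 0, and 4 of the 26 pass the threshold.

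Genes of the Hedgehog pathway were measured beside the Foxf genes, since Hedgehog ligands of the epithelium are the known upstream signal. Of 16 pathway genes tested, 1 rose and 0 fell (limma), against 0.526% and 0.712% of all genes. The median of the 16 was 0.00234. The gene that rose was the ligand gene Ihh, with log2 ratios of 1.61, 1.42, 2.10 and 2.04 in replicates 1 to 4 (adjusted p = 0.00416). As for the Foxf genes, the male arrays gave the higher values. Ptch1, the receptor gene that is itself a target of the pathway, had ratios of 0.54, 0.32, 0.48 and 0.35 (mean 0.42 ± 0.10, SD, n = 4, adjusted p = 0.0652). Hhip, a ligand-binding inhibitor and target, had ratios of 0.34, 0.64, 0.75 and 0.16 (adjusted p = 0.1999), and the target Gli1 had 0.27, 0.19, 0.17 and 0.33 (adjusted p = 0.369). Ptch1, Hhip and Gli1 were thus positive on all 4 arrays without passing the threshold, and did not follow the order of the arrays seen for Foxf1. Shh, the ligand gene best known from ureter epithelium, had a mean of 0.16 ± 0.17 and was negative in replicate 4.

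Other forkhead genes were set beside the Foxf genes. Of 10 forkhead relatives tested 0 passed the threshold (limma). At unadjusted p-values under 0.05 there were 4 above and 0 below 0, against 3.73% of all genes above 0. A positive mean was found for 8, Foxp1 was at -0.05 and Foxl2 at -0.00109, and Foxa1, which is also in the list of epithelial markers, was at 0.12 ± 0.29. The list's median was 0.19, and its medians on the single arrays were 0.15, 0.10, 0.25 and 0.23. The smallest p-values were those of Foxd1, a marker of kidney stroma, at 0.36 ± 0.15 (SD, n = 4, adjusted p = 0.151), and of Foxq1 at 0.28 ± 0.14 (adjusted p = 0.297). Foxc2 and Foxq1 are also neighbours of the Foxf genes in the reference gene order (assembly GRCm38.p6), as the second tested gene from Foxf1 and from Foxf2 on 1 side. Foxc2 had ratios of 0.13, 0.03, 0.32 and 0.53. Next to Foxf1 on its other side lies Fendrr, a long non-coding RNA gene known to be expressed with it in lateral mesoderm. Fendrr had ratios of 0.26, 0.13, 0.21 and 0.16 (mean 0.19 ± 0.06, SD, n = 4), positive on all 4 arrays with adjusted p = 0.532. Mthfsd, which lies between Foxf1 and Foxc2, had a mean of -0.12 and was negative on all 4 arrays.

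**Figure D3:**
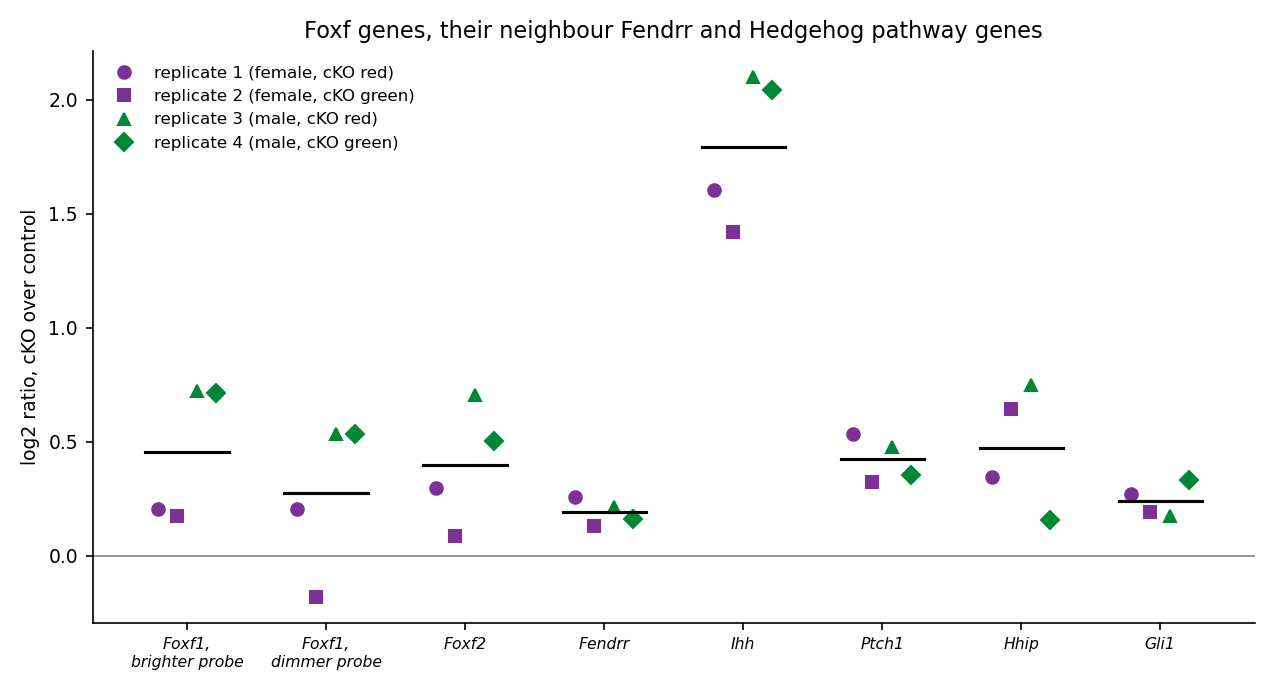
Log2 ratios of cKO over control (vertical axis) for both Foxf1 probes, Foxf2, the Foxf1 neighbour Fendrr and 4 Hedgehog pathway genes, with 1 symbol per array and a bar for the mean. Replicates 3 and 4, the male arrays, lie above replicates 1 and 2 for Foxf1, Foxf2 and Ihh but not for Ptch1 or Gli1.

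Levels of other cell types' markers were also compared between cKO and control RNAs. The summed intensity of 9 endothelial markers was 75754 to 79450 in cKO RNAs and 65462 to 74669 in control RNAs. That of 9 cartilage markers was 68391 to 78274 in cKO and 60240 to 66628 in control RNAs, so neither sum overlapped between the groups. How often sums of other gene lists separate was not tested. The cartilage marker Comp was not well above background. The sum of 10 blood and macrophage markers had log2 ratios of 0.03, -0.11, 0.34 and 0.37 in replicates 1 to 4, with sums of 133701 to 160550 in cKO and 105304 to 164989 in control RNAs. Its embryonic globin gene Hbb-y had ratios of 0.20, -0.07, 0.58 and 0.54, higher on the male arrays as Foxf1 was, while the median over the 10 genes was -0.18. The 12 skeletal muscle markers summed to 8957 to 15890 in cKO and 14450 to 22965 in control RNAs. Of the other lists, only 2 of the 6 fat cell markers were above background, without Adipoq, Plin1, Cidec and Lep. The sum of those 2, Pparg (mean ratio 0.22) and Fabp4 (0.00324), did not overlap between the groups (higher in cKO). The sums of epithelium, smooth muscle, kidney, gonad, neuron and mesothelium markers did overlap. Within the arrays, the ratio of the summed level was positive in all 4 replicates for endothelial (0.03 to 0.21), cartilage (0.11 to 0.25), fat cell (0.03 to 0.12), epithelial (0.08 to 0.13), kidney (0.04 to 0.30) and mesothelial markers (0.01 to 0.33). It was negative in all 4 for skeletal muscle (-1.005 to -0.34) and for neuron and glia markers (-0.24 to -0.05). A sum follows its brightest genes, and the genes of a list did not all share its sign. The median over single genes was -0.03 for the epithelial list (6 positive, 8 negative) and -0.02 for the kidney list (6 and 6). It was 0.03 for cartilage (5 and 4), 0.13 for endothelium (7 and 2) and 0.05 for mesothelium (4 and 2). For skeletal muscle it was -0.51 and for neuron and glia -0.13 (2 positive and 10 negative each). Among the marker genes of all lists, 3 rose (limma): 1 of 12 kidney, 1 of 6 mesothelial and 1 of 14 epithelial genes tested, against 0.526% of all genes. These were the kidney tubule receptor gene Cubn (2.22 ± 0.28, adjusted p = 0.00175), the mesothelial gene Msln (1.05 ± 0.11, adjusted p = 0.00428) and the keratin gene Krt18 (0.50 ± 0.14, adjusted p = 0.0377). Of the 14 epithelial genes 1 fell (limma), the uroplakin gene Upk2 (-0.54 ± 0.11, adjusted p = 0.0367). Of the 12 skeletal muscle genes 2 fell, Myl1 (-0.78 ± 0.12, adjusted p = 0.0104, limma) and Ckm. Of all genes, 0.712% fell. The part of these cells in the Foxf differences was not tested.

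The T-box genes Tbx18, Tbx2 and Tbx3 had mean ratios close to 0. Tbx18, the gene that marks the ureteric mesenchyme, was at 13.60, 13.77, 13.75 and 13.53 in cKO RNAs and at 13.71, 13.52, 13.61 and 13.70 in control RNAs (normalised log2 intensity). The groups overlapped fully, with higher cKO values in replicates 2 and 3 and lower ones in replicates 1 and 4. Its log2 ratio averaged 0.02 ± 0.20 (SD, n = 4, adjusted p = 1.00), and the 95% interval ran from 0.859-fold to 1.20-fold.

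Tbx2 and Tbx3 encode closely related repressors that act together in ureteric mesenchyme. Tbx2 was at 13.12, 13.09, 13.20 and 13.11 in cKO RNAs and 13.04, 13.18, 13.19 and 12.94 in control RNAs. Its ratio of 0.04 ± 0.11 (SD, n = 4) had a 95% interval of 0.901-fold to 1.18-fold. Tbx3 was at 15.06, 15.25, 15.13 and 14.96 in cKO RNAs and 15.22, 14.93, 15.11 and 15.01 in control RNAs, with a ratio of 0.03 ± 0.20 and an interval of 0.876-fold to 1.19-fold. Both groups overlapped for both genes, and neither gene passed the threshold (limma, adjusted p = 1.00 each). The Wnt ligand genes tested did not all differ in 1 direction. Wnt9b rose by 0.86 ± 0.18 (limma, adjusted p = 0.0166) and Wnt7b was at 0.40 ± 0.14 (adjusted p = 0.131), with both positive on all 4 arrays. Of 26 Wnt pathway genes tested, 3 rose and 2 fell, against 0.526% and 0.712% of all genes. The inhibitor genes Dkk1 (1.56 ± 0.40) and Wif1 (1.04 ± 0.21) rose, and Wnt10a (-1.80 ± 0.09) and Wnt4 (-0.60 ± 0.07) fell. Axin2, the general Wnt response gene, was at -0.02 ± 0.13.

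Of 11 further T-box genes that were tested, 0 passed the threshold (limma). At unadjusted p-values under 0.05 there were 2 below and 0 above 0, against 8.04% of all genes in either direction. The smallest p was that of Tbx5, the heart and forelimb factor whose gene lies next to Tbx3, with ratios of -0.44, -0.37, -0.24 and -0.57 (mean -0.40 ± 0.14, adjusted p = 0.115). Tbx15 followed at -0.21 ± 0.08 and was also negative on all 4 arrays. Tbx4, the neighbour of Tbx2, was negative in replicates 1, 2 and 4 and positive in replicate 3.

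Tshz3, a zinc finger factor needed for smooth muscle differentiation of the ureter, was at 13.59, 13.57, 13.57 and 13.25 in cKO RNAs and 13.59, 13.44, 13.34 and 13.50 in control RNAs. The cKO value of replicate 4 lay below all others. The ratio averaged 0.03 ± 0.21 (SD, n = 4) with a 95% interval of 0.868-fold to 1.20-fold. Sox9, which interacts with Tshz3 in delaying muscle differentiation and also acts in ureteric bud tips and cartilage, was at 12.37, 12.71, 13.12 and 12.79 in cKO RNAs and 12.66, 12.91, 12.96 and 12.68 in control RNAs. Its ratios were -0.29 and -0.20 on the female and 0.16 and 0.10 on the male arrays. The male minus female difference of 0.37 did not pass the test (limma, adjusted p = 1.00). The mean of -0.06 ± 0.22 had an interval of 0.806-fold to 1.15-fold. The female and male values of Sox9 were thus on opposite sides of 0, and its mean changed sign without either replicate 1 or replicate 2.

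Smooth muscle genes, the later targets of this programme, had a median ratio close to 0. Of 16 tested, 1 fell and 0 rose, against 0.712% and 0.526% of all genes. The median of the 16 was -0.00158, with list medians of -0.21, 0.11, 0.12 and 0.05 on the arrays. The gene that fell was Ckm at -0.71 ± 0.26 (adjusted p = 0.0245), which is also a skeletal muscle marker. Acta2, smooth muscle actin, was at -0.02 ± 0.38, Myh11, smooth muscle myosin, at 0.04 ± 0.28, and Myocd, the coactivator of the muscle programme, at 0.24 ± 0.44.

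Tcf21, a basic helix-loop-helix factor of kidney stroma and visceral mesenchyme, had cKO levels of 15.40, 15.60, 15.43 and 15.70 and control levels of 15.70, 15.52, 15.77 and 15.57. Its ratio followed the dye. With the cKO RNA in red it was -0.30 and -0.34, and with the cKO RNA in green it was 0.08 and 0.13. The dye coefficient was -0.21 (limma, adjusted p = 1.00), and the dye effect passed the adjusted threshold for 0% of all genes. With the dye averaged out, the ratio was -0.11 with a 95% interval of 0.824-fold to 1.05-fold.

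Osr1, a zinc finger factor of intermediate mesoderm and kidney progenitors, was the member nearest to a decrease. Its levels were 12.99, 12.87, 12.91 and 12.61 in cKO RNAs and 13.23, 12.98, 12.91 and 12.78 in control RNAs. The ratios were -0.25, -0.12, 0.00 and -0.17, a mean of -0.13 ± 0.10 (SD, n = 4) with adjusted p = 0.917 and an interval of 0.799-fold to 1.04-fold. The cKO value was below its control on 3 arrays and level with it in replicate 3, and the groups overlapped. Osr2, its relative, was negative on all 4 arrays at -0.37 ± 0.30 (adjusted p = 0.275).

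Hic1, a transcriptional repressor of mesenchymal progenitors, was read by 2 probes. The brighter one gave 15.00, 15.03, 14.70 and 15.08 in cKO RNAs and 15.15, 15.05, 14.71 and 14.70 in control RNAs. The dimmer one gave 10.43, 10.33, 9.68 and 10.23 in cKO and 10.54, 10.51, 9.62 and 9.87 in control RNAs. With both probes the cKO value of replicate 4 was above its control, at ratios of 0.38 and 0.36, and the control RNAs were lower on the male than on the female arrays. The mean ratios of 0.05 ± 0.23 and 0.03 ± 0.24 (SD, n = 4) lay close to each other, and the interval of the brighter probe was 0.885-fold to 1.21-fold.

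**Figure D4:**
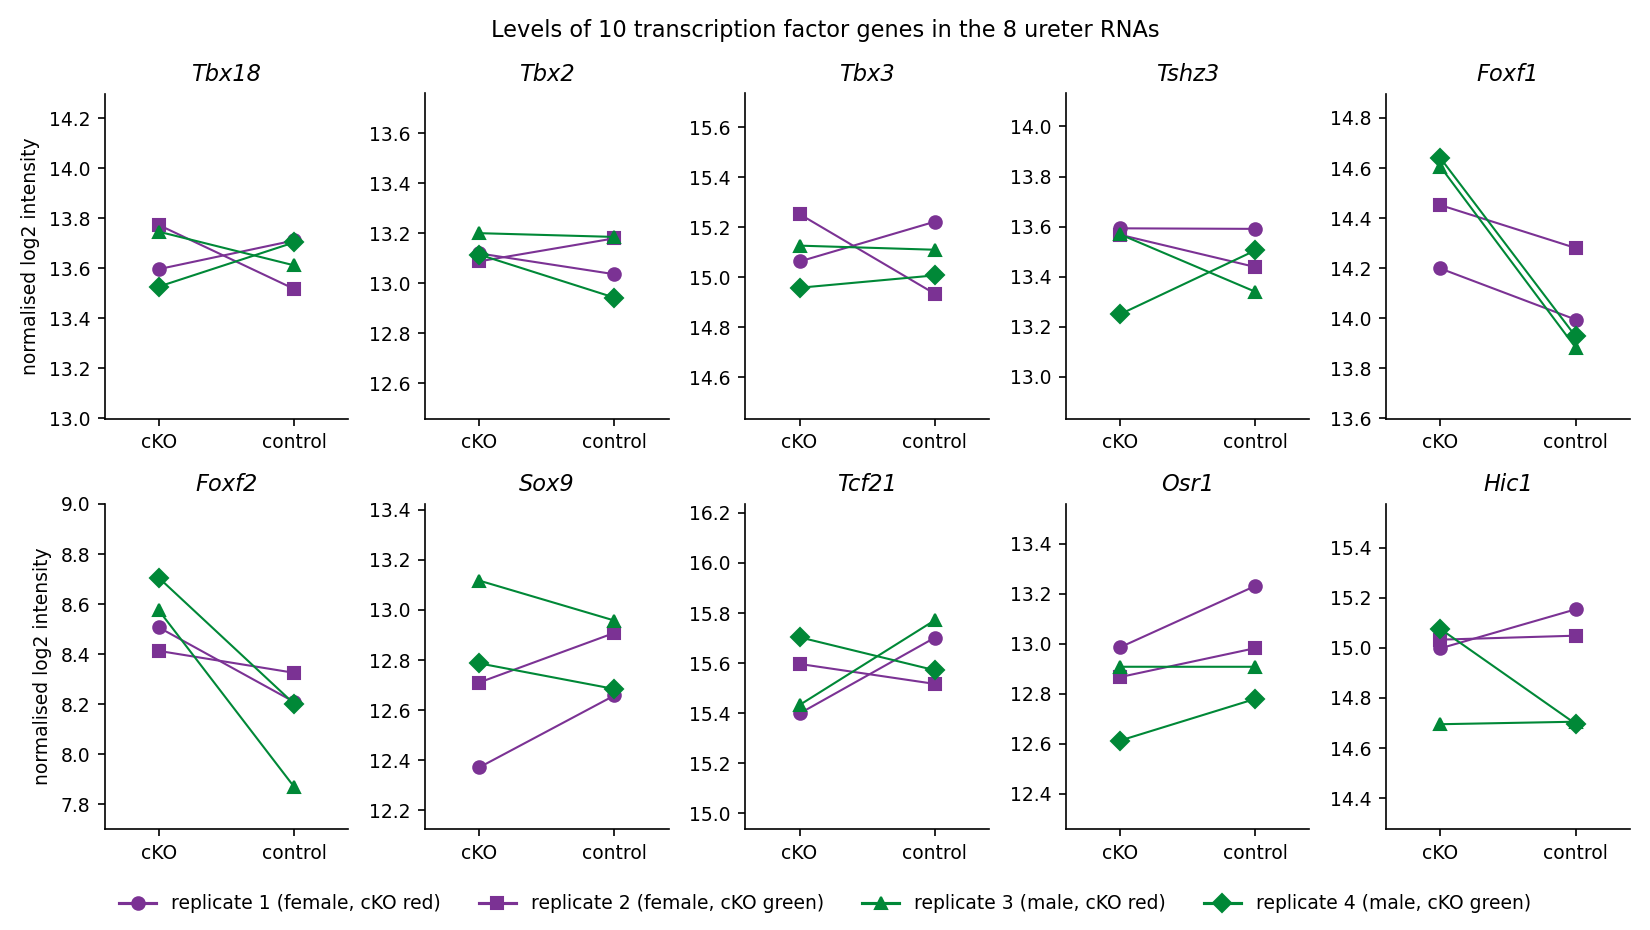
Normalised log2 intensity (vertical axes, each spanning the same range around the gene's mean) of the 10 genes in cKO (left) and control (right) RNAs, with a line joining the RNAs of an array. Lines fall from cKO to control on all 4 arrays for Foxf1 and Foxf2. They run in both directions for Tbx18, Tbx2, Tbx3, Tshz3, Sox9, Tcf21 and Hic1. For Osr1 they rise on 3 arrays and are level in replicate 3.

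The 4 spots of a probe varied less than the arrays for most probes. The median SD over spots was 0.02 to 0.07 on the log2 scale for the 12 probes, while the SD over arrays was 0.10 to 0.34. The exception was Sox9, with a spot SD of 0.23 on 1 array and an SD of 0.22 over arrays. The next highest spot SD on an array was 0.12, for Tbx3. For the 8 genes other than the Foxf genes, the 95% intervals ended between 0.799-fold and 1.21-fold.

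The 10 genes were also compared with each other over the 8 RNAs, after the means of each dye and each genotype were removed from each gene. Of 45 pairs, 1 passed a two-sided permutation test over all orders of the 8 values, adjusted over the pairs. This was Tbx3 and Tshz3, with a Pearson r of 0.93 (adjusted p = 0.0301 by permutation) and a Spearman rho of 0.95 (adjusted p = 0.0513 by permutation). For this pair r was 0.83 without the 2 RNAs farthest from the median of Tbx3. Tbx18 and Tbx3 had r = 0.87 and rho = 0.76 (adjusted p = 0.0569 and 0.207 by permutation), and r fell to 0.65 without the 2 farthest RNAs. Tbx18 and Tshz3 had r = 0.77 (adjusted p = 0.207 by permutation), and r fell to 0.45 without the 2 farthest RNAs. After the means were removed, the cKO RNA of replicate 4 was the lowest of the 8 for Tbx18 (-0.14), Tbx3 (-0.19), Tshz3 (-0.20) and Osr1 (-0.23). Foxf1 and Foxf2 had r = 0.69 and rho = 0.76 (adjusted p = 0.300 and 0.207 by permutation), and r = 0.67 without the 2 farthest. The lowest value was that of Tcf21 and Osr1, with r = -0.88 and rho = -0.88 (adjusted p = 0.0569 and 0.109 by permutation). Without the 2 farthest RNAs r was -0.68 for this pair. The 2 RNAs of an array share its hybridisation, so the 8 values are not fully independent. Removing the dye and genotype means ties them further, and sex and array effects were not removed. The permutation p-values are therefore approximate and may be too small.

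**Figure D5:**
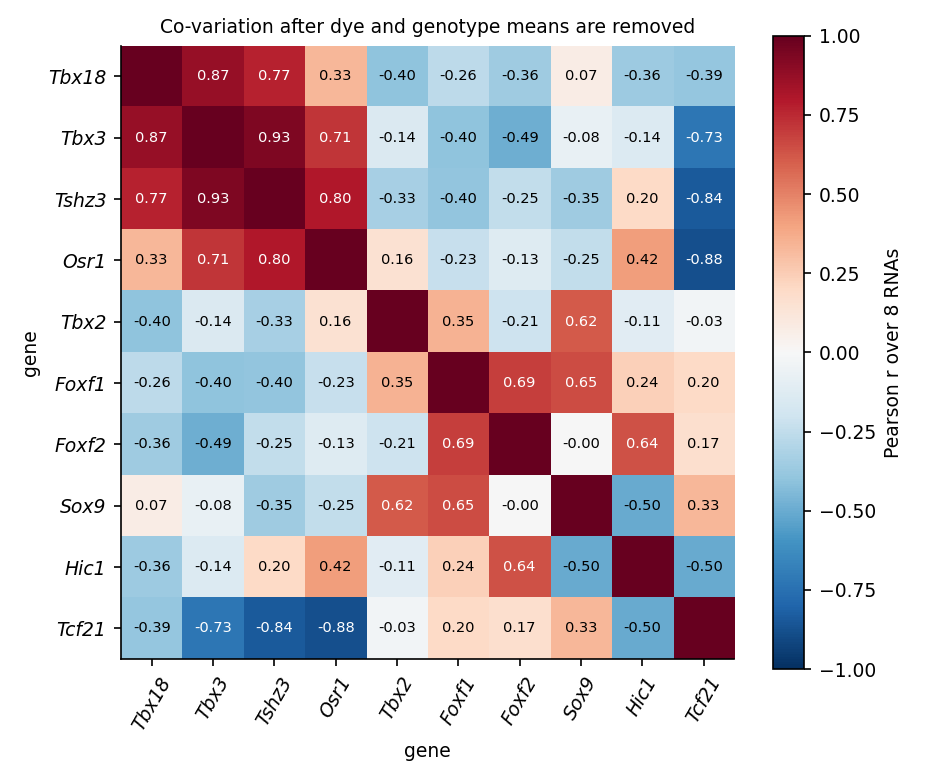
Pearson r between the 10 genes over 8 RNAs (colour, from -1 to 1), after dye and genotype means were removed. Tbx18, Tbx3 and Tshz3 have values from 0.77 to 0.93 with each other, of which only that of Tbx3 with Tshz3 passed the permutation test. Osr1 has 0.80 with Tshz3, 0.71 with Tbx3 and 0.33 with Tbx18. The lowest values of Tcf21 are those with Tbx3, Tshz3 and Osr1.

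Over all genes tested, likeness to each member was measured as Pearson's r over the 8 RNAs with the dye means removed. For Tbx18 the most alike were Col6a3, a collagen VI chain of connective tissue (r = 0.99), 9530029O12Rik (r = 0.98) and a probe with no gene symbol, A_55_P1957870 (r = 0.98). For Tbx2 it was LOC102638515 (r = 0.99), for Tbx3 1700001D01Rik (r = 1.00) and for Sox9 BC037032 (r = 0.97). For Tshz3 it was Clic4 (r = 0.99), for Foxf1 Plekhs1 (r = 0.98), for Foxf2 the tubulin gene Tubb5 (r = 0.98) and for Osr1 the histone variant gene Macroh2a1 (r = 0.99). For Tcf21 it was Arhgef38 (r = 0.98) and for Hic1 the potassium channel subunit gene Kcnab3 (r = 0.99). The search over so many genes with 8 values each makes high values common, and they are a description only.

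The surroundings of the members were set beside them last. Of 33 other genes of ureteric mesenchyme tested, 0 passed the threshold (limma). At unadjusted p-values under 0.05 there were 3 below and 2 above 0, against 8.04% of all genes in either direction. Of the 33, 16 had a positive and 17 a negative mean, and the median was -0.000821. Ptch1 and Osr2 had the smallest p-values of this list. Of 21 BMP pathway genes, 1 rose and 0 fell (limma), against 0.526% and 0.712% of all genes. Bmp2 rose by 1.19 ± 0.15 (adjusted p = 0.00257), while Bmp4, the mesenchymal ligand gene downstream of FOXF1, was at 0.09 ± 0.35 and negative in replicates 1 and 4. Of 16 retinoic acid pathway genes, 1 fell and 0 rose (limma), against 0.712% and 0.526% of all genes. The gene that fell was Aldh1a1 at -1.29 ± 0.20 (adjusted p = 0.00396), a retinaldehyde dehydrogenase. The mesenchymal family member Aldh1a2 was at 0.19 ± 0.15 and positive on all 4 arrays without passing the threshold (adjusted p = 0.638). Of 9 relatives of the teashirt, Osr, Hic, basic helix-loop-helix and Sox members, 0 passed (limma). At unadjusted p-values under 0.05 there were 1 below and 1 above 0, against 8.04% of all genes in either direction. Osr2 and Sox6 (0.23 ± 0.18) had the smallest p-values of this list.

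Of the 40 tested genes that lie nearest to the members on either side in the reference gene order, 0 passed the threshold (limma). At an unadjusted p under 0.05 there were 8 of the 40, against 8.04% of all genes in either direction. The median of the 40 was 0.01. Of them, 7 were positive and 5 negative on all 4 arrays, against 15.3% of all genes with the same sign on all 4. The lowest was Tbx5 beside Tbx3 and the highest Nt5e beside Tbx18, at 0.44 ± 0.36 (SD, n = 4, adjusted p = 0.376).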

How the data were processed

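The scanner files deposited for the 4 arrays give an intensity per spot and channel, from Agilent Feature Extraction (10.7.3.1 in the submitters' processing notes). Flags for spots above background, nonuniform or saturated are in the deposited files too, with probe positions of build mm9. The authors' value table holds log2 ratios, and how they were normalised was not stated in the labels. Set against the processed signals, its slopes were 1.00 on every array, so it gives cKO over control, and its column medians were 0, with 32.2% to 32.6% of each column's values at exactly 0 and no member among them.

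Background was corrected by normexp (offset 50), and log2 ratios by loess within arrays. Control spots had weight 0 there, and 17 to 33 nonuniform spots per array were dropped. No spot was saturated. Levels are log2 intensities after loess and Aquantile normalisation, comparable only within a probe. Probes with at least 0.5 of their spots well above background in all cKO or all control RNAs were kept (28611), and the brightest stood for its gene. Names came from the file (7609 probes), or from the reference table by symbol (30385) or by accession (1435). The fit was limma 3.58.1 (R 4.3.3) with a dye intercept, which leaves 2 residual degrees of freedom, and p-values were adjusted by Benjamini-Hochberg over 21501 genes. The array is the pair. The fit was tested on simulated data. All arrays shared 1 slide and scan date.

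Every member is named, and the 1 gene most like each in pattern (3 for Tbx18). Of each gene list the changed genes were named (at most 4 with the smallest p, and Wnt4 as the remaining changed gene of the Wnt list), or else the 2 with the smallest p, and others serve as examples picked after their values were seen, as were the neighbours. The members and lists were chosen with earlier results of these data known.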

Additional observations from a re-analysis of the deposited data

Results flagged for a closer look

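In the cKO RNA of replicate 4, a male array, Tshz3 had a normalised log2 intensity of 13.25, below the other 3 cKO RNAs at 13.57 to 13.59. The gap took a share of 0.925 of the whole range of the 4 values, above Dixon's 95% critical value for 4 samples. It was the only such case among 36 sets of 4 values (the ratios, cKO levels and control levels of the 12 probes), and chance alone flags a share of about 0.05 of such sets. The control RNA of the same array was at 13.50, within the range of the other controls. The same RNA was also the lowest of the 4 cKO RNAs for Tbx18 (13.53), Tbx3 (14.96) and Osr1 (12.61). It was the highest of the 4 for Foxf1, Foxf2, Tcf21 and Hic1. A link between these values, or with any other measure of that array, was not tested.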

How the results depend on the processing

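Over all alternatives, 105 recomputed log2 ratios of the 10 genes kept their direction and their side of the threshold, 4 newly passed it and 11 changed sign. All sign changes were of genes with means close to 0 and none passed the threshold. With median centring in place of loess, Sox9 was at 0.00767. Leaving out 1 array at a time moved Tbx18 between -0.0832 and 0.13, Tbx2 between -0.0215 and 0.11, Tbx3 between -0.0604 and 0.12, Tshz3 between -0.0697 and 0.12, Sox9 between -0.17 and 0.0560 and Hic1 between -0.0495 and 0.15. Foxf1 stayed between 0.32 and 0.59 and Foxf2 between 0.29 and 0.50. With Agilent's processed signals Foxf2 (0.53) was above Foxf1 (0.45), and so it was in the authors' value table (0.50 against 0.44). The median over the 10 genes, 0.03 as reported, was 0.0911 with median centring and between -0.0214 and 0.0793 without 1 array. The number of the 10 genes called higher was 0 as reported, 1 (Foxf1) with sex as a covariate, and 0 to 2 without 1 array. It was 0 with Agilent's processed signals, median centring, no filter on dim probes, the authors' value table, no dye term, every kept probe by itself, or the 8 channels as separate RNAs without the pairing (smallest adjusted p 0.149). None was called lower under any of these. The number of all genes called, 266 as reported, was 86 without a filter on dim probes, 1 with the authors' value table, 460 without the dye term, 543 with sex as a covariate, 361 without replicate 1, 939 without replicate 2 and 1608 without replicate 4. Without an array 1 residual degree of freedom remains, and the cause of the differing counts was not tested. The number of arrays limits the precision.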
